A study of Mus musculus with 24 samples.

Results

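The transcripts of 9 genes that write or erase DNA methylation were measured in the hippocampus of mice with and without Egr1. The genes were chosen by symbol: the TET dioxygenases Tet1, Tet2 and Tet3, the DNA methyltransferases Dnmt1 and Dnmt3a, the GADD45 genes Gadd45a, Gadd45b and Gadd45g, and the DNA glycosylase gene Tdg. Each symbol matched a single Ensembl identifier, so the members are 9 of the 36605 genes in the count table, and all 9 passed the filter on low counts in every comparison.

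The study deleted the transcription factor gene Egr1 in the neural lineage and sequenced polyadenylated RNA of whole hippocampi from 24 adult mice, 3 females and 3 males of each of 4 genotypes. Egr1fNesCre+ mice (Egr1cKO) carried floxed Egr1 alleles and the Nestin-Cre transgene, Egr1fNesCre- mice the floxed alleles without Cre, Egr1wtNesCre+ mice wild-type Egr1 with Cre, and Egr1wtNesCre- mice were fully wild type. The floxed line came from C57BL/6N stock and the driver was the line B6.Cg-Tg(Nes-Cre)1Kln/J, whose recombinase acts in neural progenitors, so their neurons and macroglia lose the allele throughout the brain while microglia and vessels keep it. Floxed mice and mice with wild-type Egr1 came from separate ranges of mouse numbers, so the floxed allele and the series of mice cannot be told apart in a comparison across them. An age in weeks was not given in the sources used here, and the mice were not stated to be littermates.

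DNA methyltransferases place a methyl group on cytosine: Dnmt1 copies the pattern to the new strand after replication, and Dnmt3a sets new methylation and is the main enzyme of its kind in adult neurons. TET enzymes oxidise 5-methylcytosine to 5-hydroxymethylcytosine and further forms, and thymine DNA glycosylase, the product of Tdg, cuts out the most oxidised forms so that base excision repair can restore cytosine. GADD45 proteins are stress-response adaptors that have been placed beside this repair step, and Gadd45b and Gadd45g are known as genes that neurons induce with activity. EGR1 is an activity-induced zinc finger protein that has been described to bring TET1 to its sites in neurons. The comparisons ask whether the transcripts of this machinery differ once Egr1 is lost.

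The 24 libraries held 18025168 to 34955004 counted reads, with a median of 22743950.5. Egr1 had the level its label calls for in every library: 4.86 to 10.2 CPM (a gene's count scaled to one common library total, with edgeR's TMM factors) in the 6 Egr1cKO mice and 47.7 to 149 CPM in the 18 others, and its log2 fold change was -3.57 ± 0.19 (SE) in Egr1cKO against Egr1fNesCre- mice. Residual Egr1 in whole tissue can come from fewer expressing cells or from less RNA per cell, which bulk RNA cannot tell apart. GEO's labels call the cells endocrine, but all samples carried the listed hippocampal neuron markers. Slc17a7 ran from 1221 to 1732, Zbtb20 from 216 to 789 and Prox1 from 58.2 to 185 CPM. Iyd, the lowest of the 10 listed, ran from 2.49 to 7.70 CPM. The 7 pituitary hormone and lineage markers summed to at most 3.84 CPM, with Cga and Fshb each at 0 in 23 of 24 mice. Choroid plexus markers summed to between 22.3 and 152 CPM in single mice. The libraries also differed along an exon-length score, the median centred log2 level of 2748 genes with at least 8000 exon bases minus that of 4531 genes with at most 2000, which was above 0 in 5 of 6 Egr1cKO mice, 2 of 6 Egr1fNesCre- mice, 1 of 6 Egr1wtNesCre+ mice and 3 of 6 Egr1wtNesCre- mice. Counts of all genes called turned on single libraries: 4 genes passed between Egr1cKO and Egr1fNesCre- mice with all libraries and 327 without male Egr1fNesCre- replicate 1, and 1 gene passed between Egr1cKO and Egr1wtNesCre+ mice with all libraries and 795 without male Egr1wtNesCre+ replicate 2.

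EGR1 is the factor that was deleted, so the 250 bases before each RefSeq start of the members were searched on both strands. The search was for its motif, spelled GCGNGGGCG, and for the cyclic AMP response element TGACGTCA, the site of the activity-regulated factor CREB. RefSeq gave 13 promoters for the 9 members on GRCm38.p6. The EGR1 motif was found once each in Tet1, Dnmt3a and Gadd45b, and 4.70% of all 32851 promoters in the table held it. The cyclic AMP response element was found in Tdg, and 1.55% of all promoters held it. The matched stretches are shown 5′ to 3′ on the strand of each gene, with the motif in capitals, so that the members with and without a match can be told apart in the results that follow. Tet1, chr10:62887529-62887574, minus strand, motif 243 to 235 bases before the start; Gadd45b, chr10:80929841-80930072, plus strand, motif read on the opposite strand 30 to 22 bases before the start; Dnmt3a, chr12:3807021-3807049, plus strand, motif 129 to 121 bases before one of its 3 starts and within an exon of another transcript; Tdg, chr10:82629673-82629740, plus strand, motif 135 to 128 bases before the start.
Tet1: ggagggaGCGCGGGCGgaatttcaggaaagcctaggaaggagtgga
Gadd45b: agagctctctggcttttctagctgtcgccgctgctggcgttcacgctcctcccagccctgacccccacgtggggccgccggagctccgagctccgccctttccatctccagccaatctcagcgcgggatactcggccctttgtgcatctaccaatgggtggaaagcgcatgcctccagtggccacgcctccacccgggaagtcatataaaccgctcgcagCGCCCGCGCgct
Dnmt3a: ccgggaggcgGCGCGGGCGgcggcgcgag
Tdg: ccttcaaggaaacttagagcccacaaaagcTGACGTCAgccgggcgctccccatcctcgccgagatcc
The Gadd45b stretch stops before the gene's GENCODE start and holds 21 CG pairs, the letters that methyltransferases act on. Over the 250 bases before the start, CG pairs ran from 2 to 51 in the 13 promoters, with 12 above the median of 6 over all promoters of the table. The EGR1 motif itself holds CG pairs, and the share of all promoters with it was not matched for CG content. The highest was that of Tet2, and the 3 starts of Dnmt1 had 26, 7 and 2. A match is a description of letters and does not show binding. No match in a window says only that these letters are not in it. By GENCODE the Tet1 gene, on the minus strand, begins at 62908996, so its matched stretch lies inside the gene. The windows of Tet2, Tet3 and Dnmt3a, and those of the Dnmt1 starts with 26 and 7 CG pairs, also lie inside their GENCODE genes. GENCODE starts other than those of RefSeq were not searched.

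Gadd45g had the highest level per length, and Tet1 and Gadd45a had the lowest. In CPM per kilobase of exons (mean ± SD over 24 mice), Gadd45g stood at 13.97 ± 3.21, Gadd45b at 8.46 ± 1.59, Tdg at 7.63 ± 0.651, Dnmt1 at 7.39 ± 0.546, Dnmt3a at 5.84 ± 0.508, Tet3 at 4.57 ± 0.498, Tet2 at 3.57 ± 0.321, Tet1 at 0.920 ± 0.168 and Gadd45a at 0.898 ± 0.276. Among neighbours in this order, Gadd45g exceeded Gadd45b, Dnmt1 exceeded Dnmt3a, Dnmt3a exceeded Tet3 and Tet2 exceeded Tet1 in 24 of 24 mice, and Tet3 exceeded Tet2 in 22 of 24. The neighbours that did not separate were Gadd45b and Tdg (Gadd45b higher in 16 of 24 mice), Tdg and Dnmt1 (11 of 24) and Tet1 and Gadd45a (12 of 24). Only Tet2 and Tet1 had ranges over the mice that did not overlap. The order below Gadd45g turned on the length used. With the longest coding transcript in place of all exon bases, Dnmt3a stood at 10.03 rather than 5.84 and Tdg at 11.7 rather than 7.63 CPM per kilobase, and Dnmt1 exceeded Dnmt3a, and Gadd45b exceeded Tdg, in only 7 of 24 mice. At the bottom, Tet1 then stood at 0.989 and Gadd45a at 1.30 CPM per kilobase, with Tet1 higher in 8 of 24 mice.

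**Figure D1:**
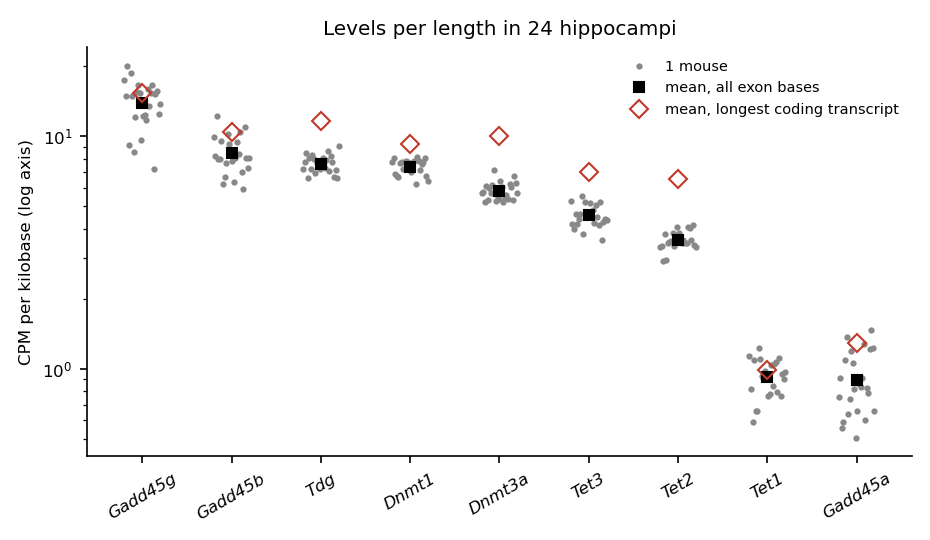
Level of the 9 genes in CPM per kilobase (log axis), ordered from high to low. Grey points are the 24 mice and black squares their mean with all exon bases as the length, and open red diamonds are the mean with the longest coding transcript; Gadd45g is highest by either length, and Tet1 and Gadd45a lie near 1 CPM per kilobase.

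Tet3 was the most abundant of the TET transcripts by all exon bases, and Tet1 the least in every mouse. As a share of the summed TET level per kilobase, Tet3 made up 50.4% ± 3.91 (SD, n = 6) in Egr1cKO mice and 51.9% ± 2.22 in Egr1fNesCre- mice, Tet2 made up 38.9% ± 3.85 and 38.6% ± 2.36, and Tet1 made up 10.7% ± 1.31 and 9.47% ± 1.75. The ratio of summed TET to summed DNMT level was 0.704 ± 0.0624 in Egr1cKO mice, 0.660 ± 0.0590 in Egr1fNesCre- mice, 0.676 ± 0.0552 in Egr1wtNesCre+ mice and 0.704 ± 0.0322 in Egr1wtNesCre- mice. These shares and ratios overlapped between all 4 genotypes.

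None of the 9 members was a differentially expressed gene in any comparison of genotypes. DEGs were called with edgeR's quasi-likelihood test at a fold of at least 1.2 and a Benjamini-Hochberg adjusted p of at most 0.05 over all genes tested. In these fits, which join both sexes, no member reached an unadjusted p under 0.05 either. Fits within a sex are given below. Of all genes tested, 0.0221% were called between Egr1cKO and Egr1fNesCre- mice (4 of 18074), 0.00558% between Egr1cKO and Egr1wtNesCre+ mice (1 of 17909), and 0.00543% between Egr1cKO mice and the other 18 (1 of 18433, Egr1 itself). For Nestin-Cre alone (Egr1wtNesCre+ against Egr1wtNesCre-) the share was 0% of 18022 genes, with 1104 at an unadjusted p under 0.05 and 16 called by DESeq2. For the floxed allele alone (Egr1fNesCre- against Egr1wtNesCre-) it was 0% of 18220 genes, with 1716 at an unadjusted p under 0.05 and 2 called by DESeq2. Between Egr1cKO mice and Egr1fNesCre- mice, Egr1wtNesCre+ mice and the other 18, DESeq2 called 54, 26 and 34 genes. In edgeR, 2849, 2159 and 2786 genes had an unadjusted p under 0.05 in the same comparisons. With so small a background by either tool, a count of 0 among 9 does not set the members apart from other genes. DESeq2 called 0 members in these 5 comparisons too. Between Egr1cKO and Egr1fNesCre- mice the median log2 fold change of the members was 0.04, 6 above 0 and 3 below, and that of all genes was -0.01.

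**Figure D2:**
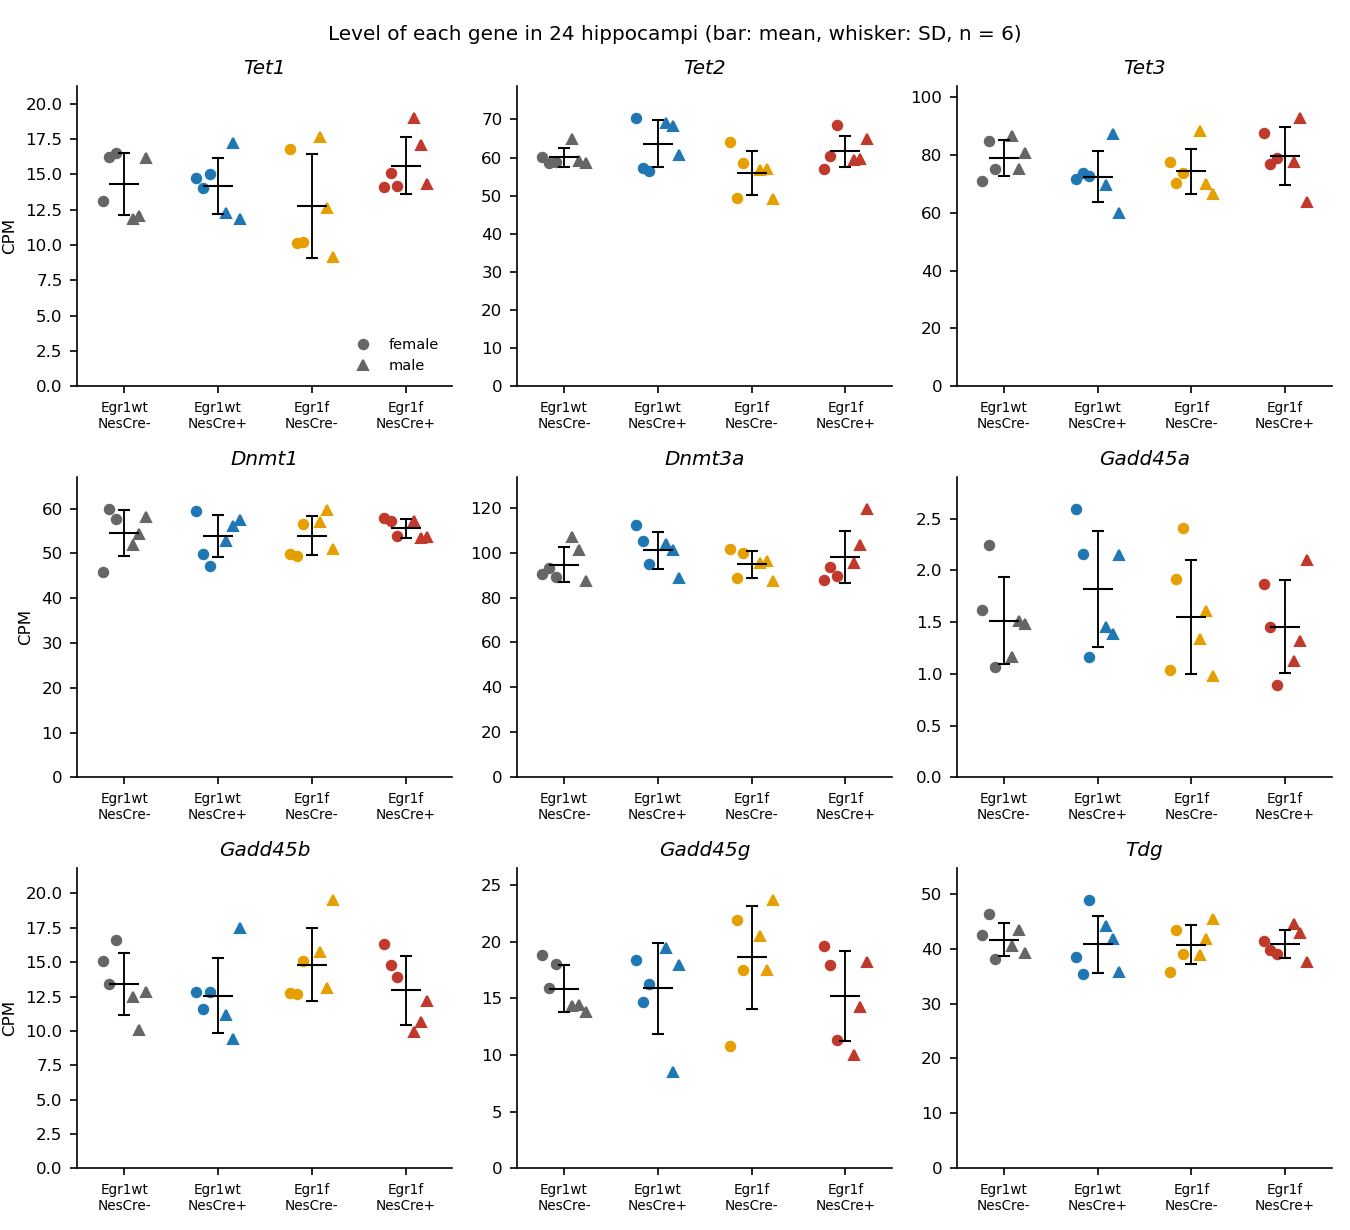
CPM of each gene in the 24 mice by genotype, with circles for females and triangles for males, black bars for the mean and whiskers for the SD (n = 6 mice per genotype); each axis starts at 0. For every gene the 4 genotypes overlap, and Gadd45g runs from 8.46 to 23.6 CPM.

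Tet1 (chr10:62804570-62908996, minus strand), whose product is the TET enzyme described as a partner of EGR1, had the largest positive difference of the 9 between Egr1cKO and Egr1fNesCre- mice. Its lowest, median and highest CPM were 14.1, 14.7 and 19.0 in Egr1cKO mice, 9.12, 11.4 and 17.6 in Egr1fNesCre- mice, 11.8, 14.4 and 17.2 in Egr1wtNesCre+ mice and 11.8, 14.6 and 16.5 in Egr1wtNesCre- mice. Of the 6 Egr1fNesCre- mice 4 lay below every Egr1cKO mouse, and the highest value of the study, 19.0 CPM, was that of an Egr1cKO male. The log2 fold change was 0.28 ± 0.16 (SE) against Egr1fNesCre- mice (adjusted p = 0.373, edgeR, 95% interval -0.05 to 0.61) and 0.14 ± 0.11 against Egr1wtNesCre+ mice (adjusted p = 0.623, -0.11 to 0.38). Against the 18 other mice together it was 0.19 ± 0.12 (adjusted p = 0.443, -0.05 to 0.43). Together the 3 intervals reach from -0.11 to 0.61.

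Tet1 moved with the exon-length score over the 24 mice, with r = 0.78 and rho = 0.75, and the score is itself higher in Egr1cKO mice. With the score as a covariate, which was added after seeing the data, the Tet1 log2 fold change became -0.06 ± 0.12 against Egr1fNesCre- mice, -0.04 ± 0.12 against Egr1wtNesCre+ mice and -0.03 ± 0.094 against the other 18. Tet1 is a long transcript, with 15457 exon bases, and so is Tet3, with 16695, but the levels of Tet2 (16870 exon bases, r = 0.30) and Dnmt3a (16642, r = -0.17) followed the score less. What sets the score was not tested.

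Tet2 (chr3:133463679-133545139, minus strand) and Tet3 (chr6:83362373-83459084, minus strand), the TET genes with the higher levels in these hippocampi, had smaller differences. Tet2 ran over 57.0, 60.0 and 68.4 CPM (lowest, median, highest) in Egr1cKO mice and 49.1, 56.8 and 64.2 CPM in Egr1fNesCre- mice, with a log2 fold change of 0.14 ± 0.076 (adjusted p = 0.360, edgeR, -0.02 to 0.30). Against Egr1wtNesCre+ mice, at 56.6, 64.4 and 70.3 CPM, the Tet2 difference was -0.05 ± 0.077 (adjusted p = 0.828, -0.21 to 0.12). The sign thus depended on the control, and the Egr1fNesCre- group held the lowest Tet2 values of the study. Tet3 ran over 63.7, 78.2 and 92.7 CPM in Egr1cKO mice and 66.5, 72.0 and 88.2 CPM in Egr1fNesCre- mice, a log2 fold change of 0.10 ± 0.090 (adjusted p = 0.608, -0.09 to 0.29). Against Egr1wtNesCre+ mice it was 0.14 ± 0.098 (adjusted p = 0.571, -0.07 to 0.34). Tet3 tracked the exon-length score with r = 0.74, and with the score as a covariate its differences were -0.07 ± 0.086 and -0.05 ± 0.094.

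Dnmt1 (chr9:20907209-20959888, minus strand), the maintenance methyltransferase, had overlapping values in all genotypes. Its CPM ranged from 53.4 to 58.0 in Egr1cKO mice, 49.5 to 59.8 in Egr1fNesCre- mice, 47.3 to 59.5 in Egr1wtNesCre+ mice and 45.9 to 59.9 in Egr1wtNesCre- mice. The log2 fold change was 0.04 ± 0.065 against Egr1fNesCre- mice (adjusted p = 0.763, edgeR, -0.09 to 0.18) and 0.05 ± 0.070 against Egr1wtNesCre+ mice (adjusted p = 0.802, -0.10 to 0.20). Both intervals lie inside the 1.2-fold limit, which is 0.26 on the log2 scale. Dnmt3a (chr12:3806007-3914443, plus strand), the de novo enzyme, ran over 87.9, 94.3 and 119 CPM in Egr1cKO mice, 87.2, 95.6 and 101 CPM in Egr1fNesCre- mice, 88.9, 102 and 112 CPM in Egr1wtNesCre+ mice and 87.2, 91.8 and 107 CPM in Egr1wtNesCre- mice. Over both sexes its log2 fold changes were 0.05 ± 0.076 against Egr1fNesCre- mice (adjusted p = 0.776, -0.11 to 0.21) and -0.04 ± 0.084 against Egr1wtNesCre+ mice (adjusted p = 0.853, -0.22 to 0.13), again inside the limit. Within a sex the signs of Dnmt3a differed and the intervals passed the limit. Against Egr1fNesCre- mice it was -0.10 in females (-0.29 to 0.08) and 0.20 in males (-0.05 to 0.44). Against Egr1wtNesCre+ mice it was -0.21 in females (-0.40 to -0.01) and 0.12 in males (-0.16 to 0.40). An antisense gene, Dnmt3aos, shares 133 exon bases with Dnmt3a and had a median count of 5, and the libraries were not stranded.

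Gadd45b (chr10:80930073-80932204, plus strand), an activity-induced GADD45 gene, did not separate the genotypes. In Egr1cKO mice its CPM was 9.90, 10.6 and 12.2 in the 3 males and 13.9, 14.8 and 16.3 in the 3 females. In Egr1fNesCre- mice it was 13.1, 15.7 and 19.5 in males and 12.7, 12.8 and 15.1 in females. In Egr1wtNesCre+ mice it was 9.396, 11.2 and 17.5 in males and 11.6, 12.8 and 12.9 in females, and in Egr1wtNesCre- mice 10.1, 12.5 and 12.8 in males and 13.4, 15.1 and 16.6 in females. Egr1cKO males lay below all Egr1fNesCre- males, where 8.93% of all genes separated the 2 groups. Egr1cKO females overlapped Egr1fNesCre- females, where 21% of all genes separated. Over both sexes the log2 fold change was -0.20 ± 0.14 against Egr1fNesCre- mice (adjusted p = 0.468, edgeR, -0.49 to 0.08) and 0.03 ± 0.15 against Egr1wtNesCre+ mice (adjusted p = 0.956, -0.28 to 0.34).

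Gadd45g (chr13:51846678-51848468, plus strand), the other activity-induced member and the most abundant per length, had the largest negative difference from Egr1fNesCre- mice. It ran over 10.002, 16.1 and 19.6 CPM (lowest, median, highest) in Egr1cKO mice, 10.8, 19.0 and 23.6 CPM in Egr1fNesCre- mice, 8.46, 17.1 and 19.5 CPM in Egr1wtNesCre+ mice and 13.7, 15.1 and 18.8 CPM in Egr1wtNesCre- mice. The lowest mouse of each of the other 3 genotypes lay below all Egr1wtNesCre- mice. The log2 fold change was -0.29 ± 0.19 against Egr1fNesCre- mice (adjusted p = 0.458, edgeR, -0.68 to 0.11) and -0.06 ± 0.19 against Egr1wtNesCre+ mice (adjusted p = 0.914, -0.48 to 0.35). Gadd45g fell along the exon-length score with r = -0.60, and with the score as a covariate the same differences were -0.01 ± 0.20 and 0.45 ± 0.17 (adjusted p = 0.916), so its sign against Egr1wtNesCre+ mice turned. Within groups its SD was 0.37 on the log2 scale, wider than that of 95.6% of the 1000 genes nearest to it in level. The same share was 85.4% for Tet1, 75.9% for Tet3, 39.7% for Dnmt1 and 37.2% for Dnmt3a.

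Gadd45a (chr6:67035096-67037457, minus strand), a target of p53 in the DNA damage response, was near the limit of these libraries, with 21 to 54 reads per mouse and 0.890 to 2.59 CPM. Its log2 fold change was -0.06 ± 0.29 against Egr1fNesCre- mice (adjusted p = 0.939, edgeR) with a 95% interval of -0.66 to 0.55. Changes up to that size in either direction were thus not excluded by these mice at this depth. Gadd45a also shares 337 of its 1764 exon bases with E230016M11Rik on the opposite strand, which had a median count of 72. Reads that lie within the shared stretch cannot be told apart in unstranded libraries. Tdg (chr10:82629828-82650799, plus strand) ran over 37.5, 40.5 and 44.5 CPM in Egr1cKO mice and 35.7, 40.4 and 45.4 CPM in Egr1fNesCre- mice. Its log2 fold changes of 0.01 ± 0.070 against Egr1fNesCre- mice (adjusted p = 0.969, -0.14 to 0.16) and 0.00 ± 0.087 against Egr1wtNesCre+ mice (adjusted p = 0.993, -0.18 to 0.19) lay inside the 1.2-fold limit. Tdg shares 367 exon bases with the opposite-strand gene Glt8d2, at a median count of 307.

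**Figure D3:**
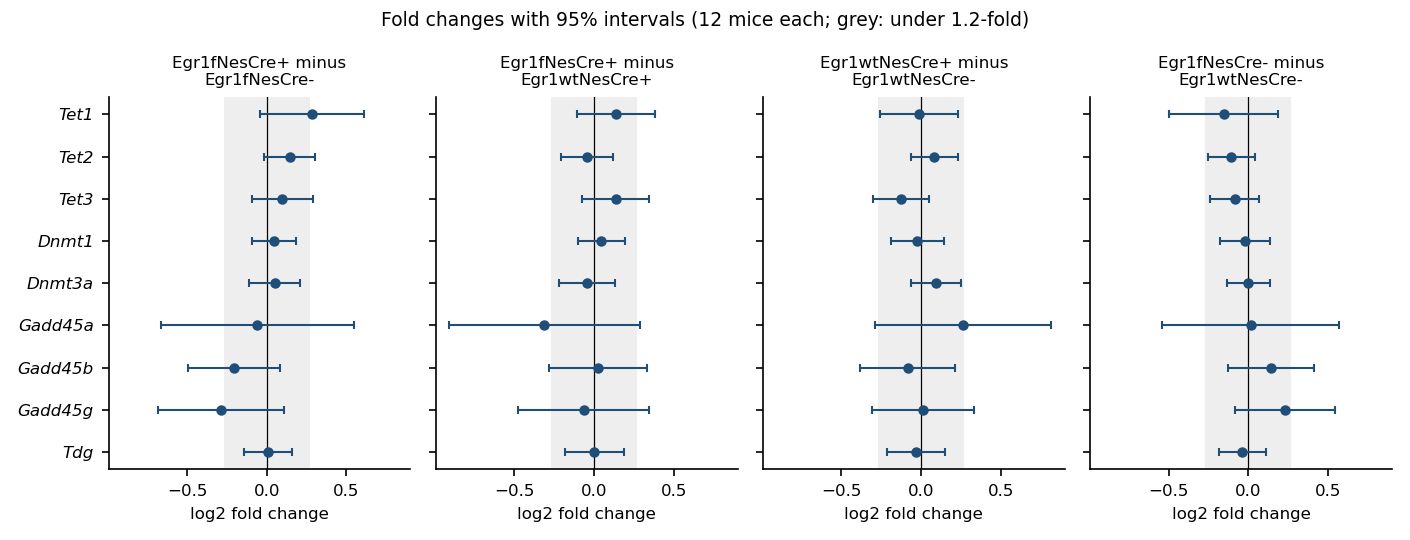
Log2 fold change of each gene (points) with its 95% interval (lines) in 4 comparisons of 12 mice each, from the edgeR fit with sex as a covariate. The grey band spans changes under 1.2-fold. Every interval crosses 0, those of Dnmt1, Dnmt3a and Tdg lie within the band, and those of Gadd45a and Gadd45g reach beyond it in each panel. Those of Gadd45b, Tet1 and Tet3 reach beyond it in at least both comparisons of Egr1cKO mice.

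The transgene and the floxed allele on their own were compared with fully wild-type mice. With Nestin-Cre alone the members' log2 fold changes ran from -0.12 (Tet3, ± 0.083) to 0.26 (Gadd45a, ± 0.26), and the lowest adjusted p was 0.765 (edgeR). With the floxed allele alone they ran from -0.16 (Tet1, ± 0.16) to 0.23 (Gadd45g, ± 0.15), and the lowest adjusted p was 0.587. Tet1, Tet2 and Tet3 all had values below 0 for the floxed allele alone and Gadd45b and Gadd45g values above 0, the opposite signs from Egr1cKO against Egr1fNesCre- mice, and both comparisons use the Egr1fNesCre- mice. The interaction of the floxed allele with Cre, the part of the Egr1cKO difference that neither allele has alone, was 0.23 ± 0.13 for Tet3 (adjusted p = 0.328, 95% interval -0.03 to 0.48), 0.31 ± 0.21 for Tet1 (adjusted p = 0.433, -0.12 to 0.73) and -0.29 ± 0.26 for Gadd45g (adjusted p = 0.566, -0.83 to 0.24). No member was called for it, against 0.00533% of 18766 genes tested. Without male Egr1fNesCre- replicate 1 and male Egr1wtNesCre+ replicate 2, left out after seeing the data because each changed the counts of all genes most, Tet3 passed for the interaction at 0.36 ± 0.11 (adjusted p = 0.0318, edgeR) as 1 of 2787 genes called, 14.6% of the 19095 tested, so that 1 of 9 members was no more than the background. Those 2 mice had exon-length scores of 0.12 and 0.21, the former the highest in its genotype and the latter the highest in its own, and with the score as a covariate in all 24 mice the Tet3 interaction was -0.05 ± 0.11.

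Sex by itself did not move the members past the threshold. Between 12 females and 12 males their log2 differences (female minus male) ran from -0.05 (Dnmt3a, ± 0.053) to 0.21 (Gadd45a, ± 0.18), with a lowest adjusted p of 0.960 (edgeR), and 0.0701% of 17124 genes were called. The difference of Egr1cKO mice from the other genotypes was then compared between females and males. Gadd45b had 0.44 ± 0.21 (unadjusted p = 0.0449, adjusted p = 0.816, edgeR, 95% interval 0.01 to 0.87), higher in females, and Dnmt3a had -0.24 ± 0.11 (unadjusted p = 0.0400, adjusted p = 0.813, -0.47 to -0.01), lower in females. Neither passed after adjustment, against 0.00507% of 19742 genes called. The 2 genes ran in opposite directions in Egr1cKO mice, where Dnmt3a was 95.2, 103 and 119 CPM in males and 87.9, 89.7 and 93.5 CPM in females, with no overlap between the sexes for either gene. Of all genes, 14% separated the 3 females from the 3 males of this genotype.

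Within each sex, groups of 3 were compared by whether they overlap. Over the 6 mice of both sexes no member separated any pair of genotypes, and of all genes 0.446% did between Egr1cKO and Egr1fNesCre- mice, 0.385% between Egr1cKO and Egr1wtNesCre+ mice, 0.258% for Nestin-Cre alone and 0.263% for the floxed allele alone. In males, Tet2 was higher and Gadd45b lower in all Egr1cKO than in all Egr1fNesCre- mice, where 8.93% of all genes separated. Also in males, Gadd45b and Gadd45g were higher and Tet2 lower in all Egr1fNesCre- than in all Egr1wtNesCre- mice, where 7.98% separated. The 3 Egr1fNesCre- males enter both of these comparisons. In females, Tet3 and Gadd45b were higher and Dnmt3a lower in all Egr1cKO than in all Egr1wtNesCre+ mice, with 22.8% of all genes separated, and Dnmt3a was higher and Gadd45b lower in all Egr1wtNesCre+ than in all Egr1wtNesCre- mice, with 13.8%. No member separated Egr1cKO from Egr1fNesCre- females (21% of all genes did), Egr1fNesCre- from Egr1wtNesCre- females (12.8%), Egr1cKO from Egr1wtNesCre+ males (7.47%) or Egr1wtNesCre+ from Egr1wtNesCre- males (6.6%). The fits within a sex gave no call, but some unadjusted p were under 0.05. In Egr1cKO against Egr1fNesCre- males Gadd45b was -0.56 ± 0.17 (unadjusted p = 0.0085, adjusted p = 0.954, edgeR) and Gadd45g -0.53 ± 0.21 (unadjusted p = 0.029). Of all genes, 535 of 17586 had such a p there. For the floxed allele alone in males Gadd45g was 0.53 ± 0.13 (unadjusted p = 0.0017, adjusted p = 0.996, edgeR) and Gadd45b 0.45 ± 0.16 (unadjusted p = 0.018), with 473 of 17255 genes. Dnmt3a in females was -0.21 ± 0.087 in Egr1cKO against Egr1wtNesCre+ mice (unadjusted p = 0.039, edgeR, 3007 of 17141 genes). For Nestin-Cre alone it was 0.20 ± 0.086 (0.042, 1309 of 17560).

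Of the 9 members, Gadd45g and Gadd45b had the largest slopes on an index of immediate early genes. An activity index was taken for each mouse as the mean log2 level (log2 of CPM + 0.5) of the immediate early genes Fos, Fosb, Junb, Arc, Npas4, Nr4a1, Ier2 and Dusp1, and it ran from 3.73 in male Egr1wtNesCre+ replicate 2 to 5.93 in female Egr1wtNesCre+ replicate 1, with genotype medians of 5.08 in Egr1cKO, 4.83 in Egr1fNesCre-, 4.82 in Egr1wtNesCre+ and 5.32 in Egr1wtNesCre- mice. Fos itself ran from 4.42 to 51.8 CPM between the same 2 mice. With sex and genotype in the fit, the log2 level of Gadd45g changed by 0.41 ± 0.10 per unit of the index (unadjusted p = 0.000461, adjusted p = 0.179, edgeR, 95% interval 0.20 to 0.62) and that of Gadd45b by 0.30 ± 0.083 (unadjusted p = 0.00119, adjusted p = 0.211, 0.13 to 0.47). Their p-values held ranks 43 and 101 among 19734 genes, and neither passed after adjustment, where 0.0405% of genes were called. DESeq2 called Gadd45g at the same slope, 0.41 (adjusted p = 0.0323), with 0.158% of 36597 genes called. So did edgeR without the filter on low counts (adjusted p = 0.00326), with 0.661% of the 36597 called. The other 7 members had slopes between -0.11 and 0.16. Cell type markers moved with the index too: all 7 choroid plexus markers had slopes above 0 (median 1.24), as had all 6 oligodendrocyte markers. Of the 10 hippocampal neuron markers, 9 had slopes below 0 (median -0.13). Over all 63 markers 38 slopes were above 0 and 25 below, and none was called. How far tissue make-up enters the slopes of the members was not tested.

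As a description over the 24 mice, Gadd45b had r = 0.62 and rho = 0.56 with the index, and Gadd45g r = 0.63 and rho = 0.55. The 12 mice with wild-type Egr1 alleles gave 0.62 for Gadd45b and 0.69 for Gadd45g, the 12 floxed mice 0.71 and 0.65, and the 6 Egr1cKO mice 0.70 and 0.73. In those 6 mice Tet1 (r = -0.87, rho = -0.43) and Tdg (r = -0.80, rho = -0.83) lay farther from 0 than either, while over the 24 mice they had r = -0.21 and -0.11. The correlations of Gadd45b and Gadd45g rested partly on single animals. Without the 2 mice farthest from the median index their r was 0.44 and 0.36. The male Egr1cKO mouse with the lowest index of its genotype (3.85) also had the lowest Gadd45b and Gadd45g of its genotype, at 9.90 and 10.002 CPM, and male Egr1wtNesCre+ replicate 2, lowest of all in the index, had the lowest values of the study, at 9.396 and 8.46 CPM. That library had an exon-length score of 0.21, and with the score as a covariate the slopes were 0.35 ± 0.083 for Gadd45g and 0.29 ± 0.085 for Gadd45b. The index itself had r = -0.13 with the score.

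**Figure D4:**
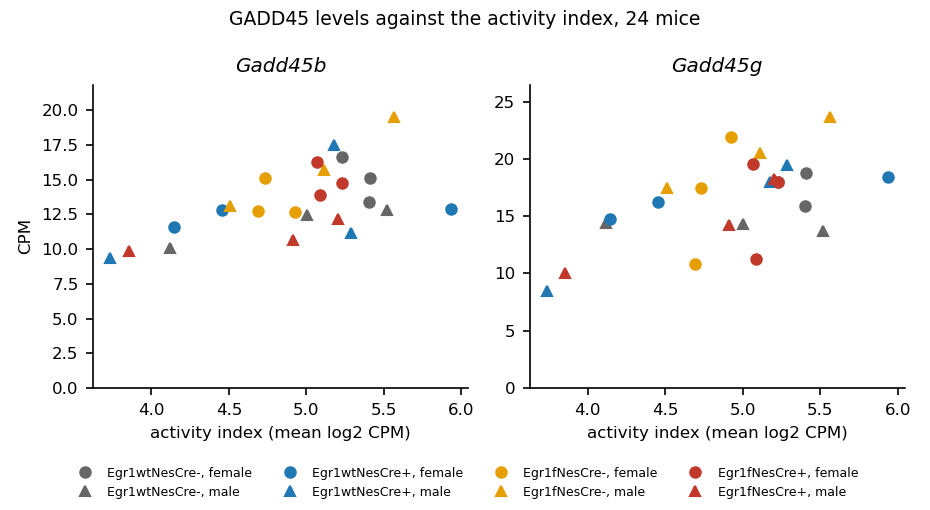
CPM of Gadd45b and Gadd45g against the activity index, the mean log2 CPM of 8 immediate early genes, in 24 mice coloured by genotype with circles for females and triangles for males. Both levels are higher at higher index (r = 0.62 and 0.63), and the mice with the lowest indices, 3.73 and 3.85, have low values of both genes.

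The members did not form a single co-varying set. Of 36 pairs, 5 had r beyond 0.5 in either direction over 24 mice, from -0.56 for Tet1 with Gadd45g to 0.65 for Gadd45b with Gadd45g. Tet1 and Tet3 had r = 0.55, Tet2 and Dnmt3a 0.56, and Dnmt3a and Gadd45b -0.55. These points share libraries, and the score that Tet1, Tet3 and Gadd45g follow moves with them. The genes whose log2 levels were most like those of each member over the 24 mice were Gm38562 and Fam208a for Tet1 (r = 0.87 and 0.86), Ddhd1 and Atp11a for Tet2 (0.80 and 0.76), Vash1 and Sec16a for Tet3 (0.91 and 0.91), Ube2n-ps1 and Otud3 for Dnmt1 (0.74 and 0.71), Gm21781 and Gm45059 for Dnmt3a (0.78 and 0.75), Loxl4 and Gm48382 for Gadd45a (0.72 and 0.71), Tcf25 and Dusp5 for Gadd45b (0.77 and 0.74), Mrps12 and Nelfe for Gadd45g (0.80 and 0.78), and Acot5 and Dnajb12 for Tdg (0.77 and 0.72). Each pair is the top of the correlations with all other genes that passed the filter on low counts. No member was among the 2 genes most like another member.

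**Figure D5:**
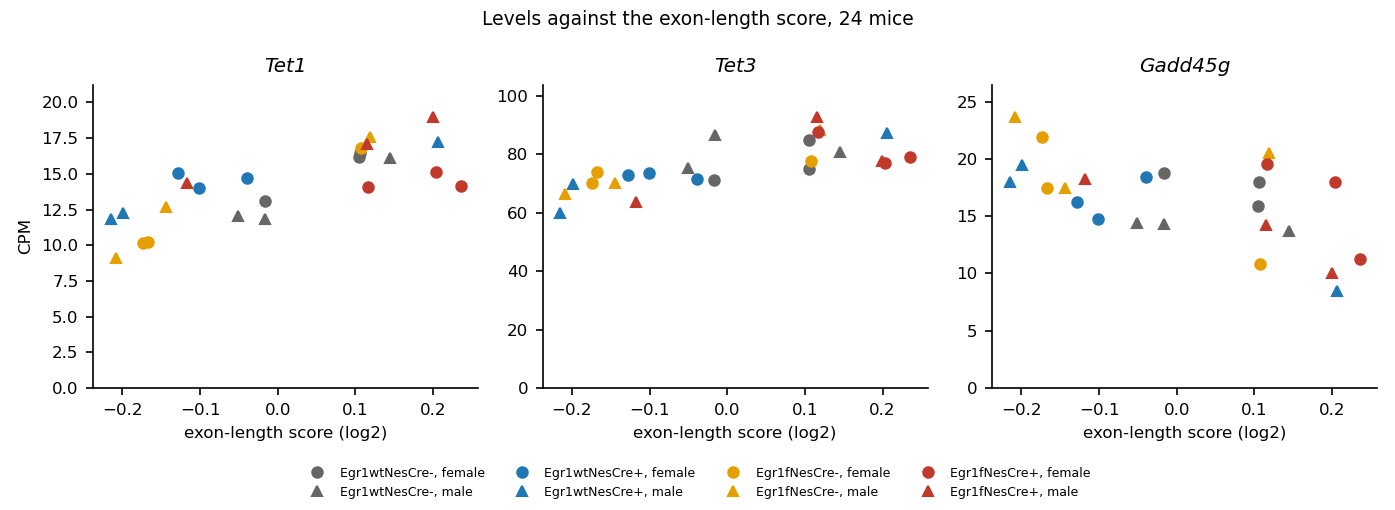
CPM of Tet1, Tet3 and Gadd45g against the exon-length score of each library (log2), 24 mice coloured by genotype with circles for females and triangles for males. Tet1 (r = 0.78) and Tet3 (r = 0.74) are higher and Gadd45g (r = -0.60) lower at high scores, and 5 of 6 Egr1cKO mice have scores above 0.

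The rest of the DNA methylation machinery was examined as 51 listed genes in 5 roles, of which 50 were in the count table and 46 were tested between genotypes. None was called in any of the 9 comparisons. Between Egr1cKO and Egr1fNesCre- mice 3 had an unadjusted p under 0.05 with a value above 0 and 4 with one below, 15.2% of 46 against 15.8% of all genes tested. By role these were 0 up and 2 down of 14 deaminase and base excision repair genes, 1 up and 1 down of 7 TET cofactors and partners, 2 up and 0 down of 9 methyl-CpG readers, 0 of 7 other methyltransferases and their cofactors, and 0 up and 1 down of 9 methyl donor genes. For Egr1cKO mice against the other 18 it was 17.4% of the 46 against 15.1% of all genes. Against Egr1wtNesCre+ mice it was 4.35% against 12.1%, with Nestin-Cre alone 0% against 6.13%, with the floxed allele alone 6.52% against 9.42%, for the interaction 15.2% against 18.8%, and for sex 13.3% of 45 against 5.66%. In the comparison of Egr1cKO differences between the sexes 6.25% of 48 had such a p against 6.09% of all genes, and for the activity index 10.4% against 10.6%.

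Among the listed genes with the smallest p between Egr1cKO and Egr1fNesCre- mice were Neil1, a glycosylase that removes oxidised bases and acts after TDG in demethylation, and Ahcy, which clears the by-product of methyl transfer. Neil1 was 7.28 ± 1.73 CPM (SD, n = 6) in Egr1cKO mice and 9.36 ± 0.763 CPM in Egr1fNesCre- mice, with 9.10 ± 0.946 in Egr1wtNesCre+ and 7.97 ± 0.835 in Egr1wtNesCre- mice. The Egr1cKO and fully wild-type means thus lay together below the other 2. Its log2 fold change was -0.37 ± 0.13 against Egr1fNesCre- mice (adjusted p = 0.262, edgeR) and -0.27 ± 0.10 against the other 18 (adjusted p = 0.242). Ahcy was -0.21 ± 0.079 against Egr1fNesCre- mice (adjusted p = 0.263). Against the other 18 the 3 smallest were Neil1, Smug1, a uracil glycosylase, at -0.16 ± 0.065 (adjusted p = 0.251), and Ahcy at -0.15 ± 0.064 (adjusted p = 0.276). With the exon-length score as a covariate the difference from Egr1fNesCre- mice became -0.20 ± 0.15 for Neil1 and -0.18 ± 0.10 for Ahcy. The difference from the other 18 became -0.15 ± 0.10 for Neil1, -0.17 ± 0.073 for Smug1 and -0.12 ± 0.071 for Ahcy.

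Cell type markers were read beside these results, and their part in them was not tested. Of 62 markers tested between Egr1cKO and Egr1fNesCre- mice 1 was called, Aqp4, the water channel of astrocytes, at 0.82 ± 0.11 (adjusted p = 0.00754, edgeR), which is named here after its value was seen. Of the 6 astrocyte markers 5 had values above 0 and Aldoc one below (-0.19 ± 0.075, adjusted p = 0.270), and their sums overlapped, at 2049 to 2511 CPM in Egr1cKO mice, 1882 to 2209 in Egr1fNesCre-, 1994 to 2376 in Egr1wtNesCre+ and 1906 to 2182 in Egr1wtNesCre- mice. Microglial markers (6 genes, 5 above 0 and Tmem119 below at -0.11 ± 0.099, adjusted p = 0.603) summed to 258 to 284 CPM in Egr1cKO mice, 202 to 259 in Egr1fNesCre-, 175 to 272 in Egr1wtNesCre+ and 206 to 246 in Egr1wtNesCre- mice, and none of the 6 was at 0 in any mouse. The microglial sums of Egr1cKO mice thus overlapped those of Egr1fNesCre- and Egr1wtNesCre+ mice and lay above those of Egr1wtNesCre- mice. Oligodendrocyte markers (6, all below 0 and none called) had median sums of 4264 CPM in Egr1cKO, 5178 in Egr1fNesCre-, 5126 in Egr1wtNesCre+ and 4195 in Egr1wtNesCre- mice, with overlapping ranges. Sums of the 5 endothelial markers (134 to 157 CPM in Egr1cKO and 105 to 142 in Egr1fNesCre- mice) and of the 10 neuronal markers (2737 to 3652 and 3093 to 3436) overlapped too.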

How the data were processed

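RNA was extracted from the hippocampus of 24 mice, and per the labels unstranded polyadenylated RNA libraries were sequenced. According to the methods, the authors trimmed reads with Trim Galore and mapped and counted them with STAR on mm10. The submitters' processing notes name STAR 2.7.9 and Trim Galore 3.8.2 and GRCm38, versions other than those of the methods. The deposited values are raw counts per Ensembl gene, with 36605 genes and no normalization.

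Symbols and lengths came from GENCODE M21, which matched 36493 identifiers. The members and gene lists were chosen with earlier results of these data known. Named were all 9 members, Egr1 as the check of the labels, for each member the 2 genes with the highest correlation, and of the other machinery any gene called plus the 3 with the smallest p in Egr1cKO against Egr1fNesCre- mice and against the other 18, of which 1 is not reported here. Counts were tested with edgeR 4.0.16 (R 4.3.3), TMM factors and a filter at a count of 10. Pairwise comparisons of genotypes used 12 mice with sex as a covariate. The comparisons of Egr1cKO mice with the rest and of the sexes used 24 mice with no covariate, the interaction used genotype and sex, the difference between the sexes in the effect of Egr1 loss used the 8 group means, and the slope on the activity index used sex and genotype. DEGs had a fold of at least 1.2 and a Benjamini-Hochberg adjusted p of at most 0.05, with no fold minimum for the interaction, the difference between the sexes and the slope. SEs were derived from the quasi-likelihood F statistic, and intervals are at 95%. CPM used TMM factors. Nothing says how the mice were assigned, so p-values measure the spread between these mice.

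Alternatives were DESeq2 1.42.0, edgeR with the size factors of DESeq2, all genes with a count, no fold minimum, other covariates and sets of mice, another index, and each mouse left out in turn. Scripts were tested on simulated data. Same-numbered mice did not pair: over 24 pairs their deviations correlated at -0.19 to 0.18, with 4 pairs over 0.1. No libraries agreed within sampling noise, with a chi-square per degree of freedom of at least 4.81. Total counts ran from 18025168 to 34955004 a mouse, and Gadd45a rested on the fewest reads of the members.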

Additional observations from a re-analysis of the deposited data

Results flagged for a closer look

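Of 36 sets of 6 mice (9 genes in 4 genotypes), 1 held a mouse far from the others. Tet2 in Egr1wtNesCre- male replicate 1 stood at 64.9 CPM while the other 5 mice of its genotype lay between 58.5 and 60.2 CPM and the gap was 0.733 of the range of the 6, above Dixon's critical value for 6 samples. Chance flags about 1 in 20 such sets.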

How the results depend on the processing

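The count of members called stayed at 0 under every alternative run in 7 of the 9 comparisons. It became 1 for the interaction without male Egr1fNesCre- replicate 1 and male Egr1wtNesCre+ replicate 2 (Tet3), and 1 for the activity index with DESeq2 and 1 without a filter on low counts (Gadd45g both times); the cause was not tested. Leaving out each mouse in turn kept the members called at 0 to 0 in each comparison that was refitted. Of 1431 refitted fold changes of members, 32 changed sign with a shift of more than 1 SE of the original value, most to values within 1 SE of 0, and none of these had passed in the first place. With the exon-length score as a covariate these were, against Egr1fNesCre- mice, Gadd45a at 0.36, Tet3 at -0.074 and Tet1 at -0.056, against Egr1wtNesCre+ mice, Tet3 at -0.046, Tet1 at -0.044 and Gadd45g at 0.45, for Nestin-Cre alone, Tet1 at 0.18 and Gadd45g at -0.28, for the floxed allele alone, Tet3 at 0.0086 and Tet1 at 0.12, against the other 18, Tet3 at -0.055, Tet1 at -0.029 and Gadd45g at 0.091, and for the interaction, Gadd45a at 0.13, Tet3 at -0.053, Tet1 at -0.19 and Gadd45g at 0.27. In females only they were, against Egr1fNesCre- mice, Gadd45b at 0.15 and Dnmt3a at -0.10, against Egr1wtNesCre+ mice, Tet1 at -0.018, for the floxed allele alone, Gadd45b at -0.16, Gadd45g at -0.069 and Dnmt3a at 0.089, and against the other 18, Gadd45b at 0.14 and Dnmt3a at -0.10. In males only they were, against Egr1fNesCre- mice, Dnmt1 at -0.025, against Egr1wtNesCre+ mice, Gadd45b at -0.22 and Dnmt3a at 0.12, for Nestin-Cre alone, Gadd45b at 0.10 and Dnmt3a at -0.015, and against the other 18, Gadd45a at 0.073. Leaving out each Egr1cKO mouse in turn, Dnmt3a against the other 18 ranged from -0.039 (without male replicate 3) to 0.057. Levels per kilobase without TMM factors moved by less than the SD between mice for all 9 members.

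Counts of all genes called moved far more than the members, with the main count first: 4 and 1 to 808 for Egr1cKO against Egr1fNesCre- mice, 1 and 1 to 795 against Egr1wtNesCre+ mice, 0 and 0 to 201 for Nestin-Cre alone, 0 and 0 to 163 for the floxed allele alone, 1 and 1 to 215 against the other 18, 1 and 1 to 2787 for the interaction, 12 and 11 to 18 for sex, 1 and 0 to 146 for the difference between the sexes, and 8 and 6 to 242 for the activity index. The replicate numbers do not pair the mice, and with the replicate block 0 members were called in each comparison, with 8 genes called between Egr1cKO and Egr1fNesCre- mice. Gadd45a rested on 21 to 54 reads a mouse, and with 6 mice a group the intervals of Tet1 and Gadd45g against Egr1fNesCre- mice reach 0.61 and -0.68.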
